A study of Homo sapiens with 16 samples.

Results

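Promoter-proximal polymerase was compared between cells depleted of SMARCA5 and untreated cells, with all treatment times pooled. Every library with promoter-proximal read counts entered the comparison, which gave 14 of the 16 samples of the series. The 9 treated libraries came from Kasumi-1, a human acute myeloid leukaemia line with the RUNX1-RUNX1T1 fusion, kept in 500 nM dTAG-47 for 2 h (n = 3), 6 h (n = 4) or 24 h (n = 2). The 5 untreated libraries (0 h) came from the same cells without dTAG-47. Treated and untreated cells alike carried the FKBP12F36V tag on SMARCA5, which lets dTAG-47 direct the protein to degradation. The remaining 2 samples, of the parental Kasumi-1 line, were not analysed here. The libraries belonged to 3 runs, told apart by a code in their column headers that is not explained and numbered here from the lowest code to the highest. In run 1 there was 1 treated library (2 h) beside 2 untreated ones, run 2 had 6 treated libraries (2 of each time) beside 2 untreated ones, and run 3 had 2 treated libraries (6 h) beside 1 untreated one. The 24 h time point was measured in run 2 alone. P-values rest on the spread between these libraries, named biological replicates by the series, with no word on separate cultures.

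PRO-seq maps RNA polymerases that are engaged on the template, by letting them run on for a short stretch in isolated nuclei with biotinylated nucleotides. At most active genes RNA polymerase II pauses a short distance downstream of the start site, held by NELF and DSIF, and enters the gene body once P-TEFb (CDK9 with a cyclin T) releases it. Reads near the promoter therefore count paused and newly initiated polymerase, and reads in the gene body count elongating polymerase. SMARCA5 is the ATPase of the ISWI remodellers, which slide nucleosomes into regular arrays, also beside promoters. The comparison asks where polymerase near promoters changed when this remodeller was removed.

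Of 10304 RefSeq transcripts listed on hg19, 9799 had enough promoter-proximal reads to be tested. With libraries scaled on the promoter-proximal reads themselves (TMM), 453 transcripts rose (4.62% of those tested) and 534 fell (5.45%) at an adjusted p under 0.05. Together these made 987, or 10.1% (edgeR quasi-likelihood test with a run term, Benjamini-Hochberg adjustment over all tested transcripts). The median log2 fold change was 0.74 among the rises and -0.73 among the falls, and it exceeded a 2-fold change in 73 rises and 94 falls. Promoter-proximal totals ranged from 1667950 to 7171601 reads per library. Among the 10304 transcripts of the gene-body table, 2094 rose (20.3%) and 1887 fell (18.3%) in the same model. Neither the counting windows nor the strand is stated in the sources used here, so reads of overlapping or divergent genes cannot be told apart.

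The transcript of the target itself did not pass the test near its promoter. SMARCA5 (NM_003601, chromosome 4, 144434616 to 144478642) held 27.6 to 53.5 CPM in treated libraries, with a median of 34.0, against 28.2, 33.1, 34.5, 34.7 and 35.9 CPM in the untreated ones. CPM is the read count relative to the TMM-scaled library size. The groups overlapped, and the log2 fold change was 0.07 ± 0.18 (SE, edgeR adjusted p = 0.839). The tag acts on the protein, so this value says nothing on the amount of protein left. As for the cell type, 11 of 17 myeloid progenitor markers were among the tested transcripts, among them KIT, MPO, CEBPA, SPI1 and CD34. Of these, 0 of the 11 passed the edgeR test, against 10.1% of all tested transcripts, too few markers to tell the shares apart. In edgeR 2 had an unadjusted p under 0.05, and DESeq2 called 0. RUNX1T1, LYZ, ELANE, PRTN3, CD38 and IL3RA had no tested row. Of markers of other lineages, 2 of 19 erythroid and megakaryocyte, 1 of 15 lymphoid (CD4) and 1 of 13 fibroblast and epithelial genes (EPCAM) were tested.

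Promoters listed for the genes of 6 transcripts are shown first, as examples of promoter sequence. Their starts were not compared with those of the counted transcripts. Among called transcripts with a mean of at least 100 reads, these 6 were both among the 12 largest changes and among the 6 smallest p-values of their direction, as far as matched in RefSeq (GRCh38.p14). Each line gives the 120 bases before the start annotated for the gene in lower case and the first 30 bases from it in capitals, 5′ to 3′ on the strand of the gene. The first 3 belong to rises and the last 3 to falls. They lie at chr14:88824531-88824680 (plus strand), chr12:56224222-56224371 (plus), chr15:64356144-64356293 (minus), chr2:53786924-53787073 (minus), chr3:16264914-16265063 (minus) and chrX:96684722-96684871 (plus).
TTC8: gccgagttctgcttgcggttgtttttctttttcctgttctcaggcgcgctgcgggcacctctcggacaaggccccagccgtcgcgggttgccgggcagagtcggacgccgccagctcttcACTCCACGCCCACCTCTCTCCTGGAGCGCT
OBFC2B (now NABP2): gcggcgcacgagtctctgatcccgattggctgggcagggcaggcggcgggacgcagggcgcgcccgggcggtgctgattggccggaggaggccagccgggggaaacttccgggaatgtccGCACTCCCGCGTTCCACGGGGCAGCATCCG
CSNK1G1: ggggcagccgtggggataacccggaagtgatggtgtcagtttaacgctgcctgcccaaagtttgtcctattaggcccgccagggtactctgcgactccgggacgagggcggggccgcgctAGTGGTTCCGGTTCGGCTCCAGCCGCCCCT
ASB3: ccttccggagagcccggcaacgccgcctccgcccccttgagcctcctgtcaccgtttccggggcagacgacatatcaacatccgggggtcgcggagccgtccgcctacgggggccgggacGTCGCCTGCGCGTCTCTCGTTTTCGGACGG
DPH3: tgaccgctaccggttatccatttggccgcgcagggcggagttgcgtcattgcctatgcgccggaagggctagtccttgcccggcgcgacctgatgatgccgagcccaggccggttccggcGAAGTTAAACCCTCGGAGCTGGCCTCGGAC
DIAPH2: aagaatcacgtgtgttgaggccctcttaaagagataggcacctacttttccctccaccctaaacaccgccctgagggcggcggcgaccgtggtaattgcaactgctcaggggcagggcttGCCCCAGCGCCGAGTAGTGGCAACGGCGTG
All 6 are rich in G and C, at 57.3% for TTC8, 63.7% for OBFC2B, 60.7% for CSNK1G1, 69.3% for ASB3 and 64.3% for both DPH3 and DIAPH2 over 300 bases around the start. The DPH3 and ASB3 starts have that of another gene within 1000 bases, on either side, on the opposite strand, OXNAD1 and ERLEC1. None was listed that near the other 4.

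The largest rise among transcripts with a mean of at least 100 reads was that of TTC8, a subunit of the BBSome, the complex that carries membrane proteins in cilia. TTC8 (NM_144596) held 27.3 to 89.8 CPM in treated libraries with a median of 48.1, against 9.13, 10.1, 10.6, 10.95 and 16.2 CPM in the untreated ones. Each treated library lay above each untreated one, and the untreated library of run 3 was the highest of its group. The log2 fold change was 2.28 ± 0.27 (edgeR adjusted p = 2.54e-05). In the TTC8 gene body the level was 19.0 to 28.7 CPM in treated libraries, a range that held all 5 untreated ones, with a log2 change of -0.09 (adjusted p = 0.300).

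OBFC2B, which encodes the single-stranded DNA-binding protein NABP2 (hSSB1) of the DNA damage response, rose near the promoter and in the gene body alike. Treated libraries held 79.3 to 206 CPM near the promoter with a median of 137, against 37.3, 37.8, 41.9, 41.9 and 92.1 CPM in untreated libraries. Only 1 treated library, 6 h A of run 3, lay below the untreated library of that run. The change was 1.601 ± 0.235 near the promoter (adjusted p = 0.000218) and 1.43 ± 0.16 in the gene body (adjusted p = 1.24e-05).

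PIAS3, a SUMO ligase that binds STAT3 and overlaps the listed transcript of NUDT17, held 28.998 to 58.2 CPM in treated libraries, against 5.54, 17.7, 18.3, 18.7 and 22.0 CPM in untreated ones. CNNM4, a magnesium transporter, held 79.7 to 120 CPM in treated libraries, against 27.7, 37.1, 42.6, 51.8 and 53.9 CPM. PTPLA (now HACD1), a dehydratase of very-long-chain fatty acid synthesis, held 59.6 to 138 CPM in treated libraries, against 30.3 to 57.4 CPM in untreated ones. In all 3 genes the groups did not overlap, and the log2 changes were 1.35 for PIAS3, 1.16 for CNNM4 and 1.14 for PTPLA. ARRDC3, an arrestin that acts in receptor trafficking, and the non-coding LINC00265 also had every treated library above every untreated one, with changes of 1.32 and 1.18. Over all tested transcripts this held for 74 (0.755%), of which 70 were among the rises.

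For MAN1B1, a mannosidase that trims glycoproteins in the endoplasmic reticulum, the runs lay at different levels. Treated libraries held 228 to 535 CPM, against 58.5, 72.0, 132, 143 and 317 CPM in untreated ones, and the highest value of each group was in run 3. The change of 1.505 was 2.21 within run 2 and 0.25 within run 3. LTC4S, the leukotriene C4 synthase of myeloid cells, rose by 1.36 and held 17.4 CPM in the 6 h A library of run 3, under all untreated libraries (26.1 to 33.6), while the other treated ones held 63.6 to 115. The remaining named rises were RAB4B-EGLN2, a readthrough transcript (1.31), MGC16275, whose start lies opposite that of TTYH2 (1.18), RABL5, now IFT22, a small GTPase of intraflagellar transport (1.17), and CSNK1G1, a casein kinase (1.16). RABL5 changed by 1.45 within run 1, 1.52 within run 2 and 0.005 within run 3.

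**Figure D1:**
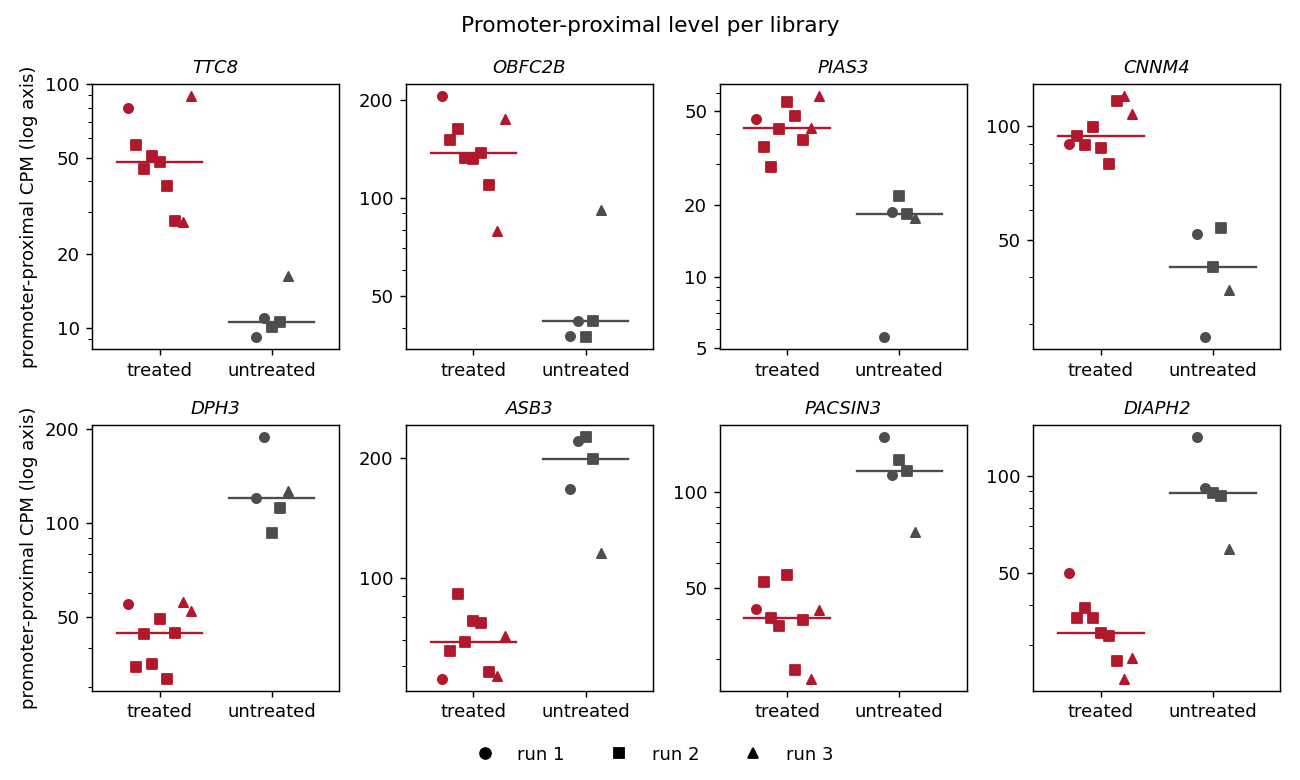
Promoter-proximal CPM (log axis) of 4 transcripts that rose and 4 that fell, in each of the 9 treated libraries (red) and 5 untreated libraries (grey). Marker shape gives the run and the bar the median of the group. The groups are apart in 7 panels, and in OBFC2B 1 treated library (79.3) lies under the untreated library of run 3 (92.1).

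DPH3, a small protein needed for diphthamide synthesis on elongation factor 2, held 31.9 to 55.9 CPM in treated libraries with a median of 44.7, against 93.2, 112, 120, 127 and 189 CPM in untreated ones. Its change was -1.35 ± 0.15 (adjusted p = 2.05e-05), and -1.44, -1.36 and -1.22 within runs 1, 2 and 3. The gene body of DPH3 held 19.8 to 26.8 CPM in treated libraries, against 19.0 to 21.9 CPM in untreated ones, a change of 0.03 (adjusted p = 0.836).

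ASB3, which recruits substrates to a cullin ubiquitin ligase, held 55.9 to 90.9 CPM near the promoter in treated libraries, against 115, 167, 199, 221 and 226 CPM in untreated ones. It fell by 1.45 on the log2 scale there (adjusted p = 2.05e-05) and by 0.33 in the gene body (adjusted p = 0.00418). The listed ASB3 transcript overlaps those of CHAC2, ERLEC1 and GPR75-ASB3. DIAPH2, a formin that nucleates actin filaments, held 23.6 to 50.1 CPM in treated libraries, against 59.3, 86.6, 88.4, 92.0 and 132 CPM in untreated ones. Its changes were -1.28 ± 0.15 near the promoter and -0.56 ± 0.08 in the gene body (adjusted p = 2.05e-05 and 9.41e-05). PACSIN3, an adaptor between the membrane and actin, held 26.1 to 55.1 CPM in treated libraries, against 75.2, 113, 117, 126 and 149 CPM, a change of -1.45. In these 4 (DPH3 included) transcripts every treated library was below every untreated one. That held for 101 of all tested transcripts (1.03%), of which 98 were among the falls.

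Some falls were large in both regions. ZNF395, a zinc finger protein, changed by -1.23 near the promoter and by -1.37 in the gene body, where treated libraries held 13.8 to 21.5 CPM, against 44.2 to 62.6 CPM in untreated ones. EZR, the ezrin that links the plasma membrane to actin, fell by 1.25 near the promoter and by 0.59 in the gene body. Its 2 h library of run 1 (244 CPM) was the highest treated value, against 232, 274, 376, 389 and 624 CPM in untreated libraries. The start of EZR lies opposite that of EZR-AS1. ADNP2, a homeobox zinc finger protein, fell by 1.21 and 0.98. SPRY1, an inhibitor of receptor tyrosine kinase signalling that growth factors induce, fell by 1.38 and 1.01. It held 12.4 to 99.8 CPM near the promoter in treated libraries, against 98.1, 118, 131, 148 and 503 CPM in untreated ones, the highest of these in run 1.

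ZNF35 had the largest fall among transcripts with a mean of at least 100 reads, of -1.65 ± 0.33 (adjusted p = 0.00273). Treated libraries held 9.56 to 20.4 CPM, against 19.1, 28.9, 41.9, 83.8 and 254 CPM in untreated ones, of which the 2 highest were those of run 1. Its change was -3.09 within run 1, -1.21 within run 2 and -0.87 within run 3. PTPN9, a tyrosine phosphatase, changed by -1.4998 near the promoter and by -0.20 in the gene body. CEBPB, a transcription factor of myeloid differentiation, held 12.5 to 57.0 CPM in treated libraries, against 41.3, 44.3, 59.9, 99.3 and 111 CPM in untreated ones. Its change was -1.25 ± 0.25 (adjusted p = 0.00324), and -0.27 within run 1, -1.84 within run 2 and -1.17 within run 3. RNF13, a membrane-bound ubiquitin ligase, and ALDH18A1, the first enzyme of proline synthesis, both fell by 1.23. The calls of all 26 transcripts named so far for a rise or a fall held when any 1 library was left out.

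The number of rises called differed between the 2 scalings. When the same promoter-proximal counts were scaled on the gene-body reads, 43 transcripts rose (0.439%) and 454 fell (4.63%). The median log2 change of all tested transcripts was -0.20 under that scaling and 0.00 under the promoter-proximal one, the level against which changes under gene-body scaling are read. Promoter-proximal scaling removes a shift common to most transcripts, so its median lies near 0 by construction. The fitted spread between libraries was also larger under gene-body scaling (common coefficient of variation 0.307, against 0.217). All 43 rises and 424 of the 454 falls were also called under promoter-proximal scaling, and 0 transcripts were called in opposite directions. All 26 named rises and falls were called under both. TTC8 changed by 2.08 under gene-body scaling (adjusted p = 3.50e-05) and DPH3 by -1.56 (adjusted p = 5.00e-05). The largest adjusted p among these under gene-body scaling was that of RABL5, 0.0330.

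**Figure D2:**
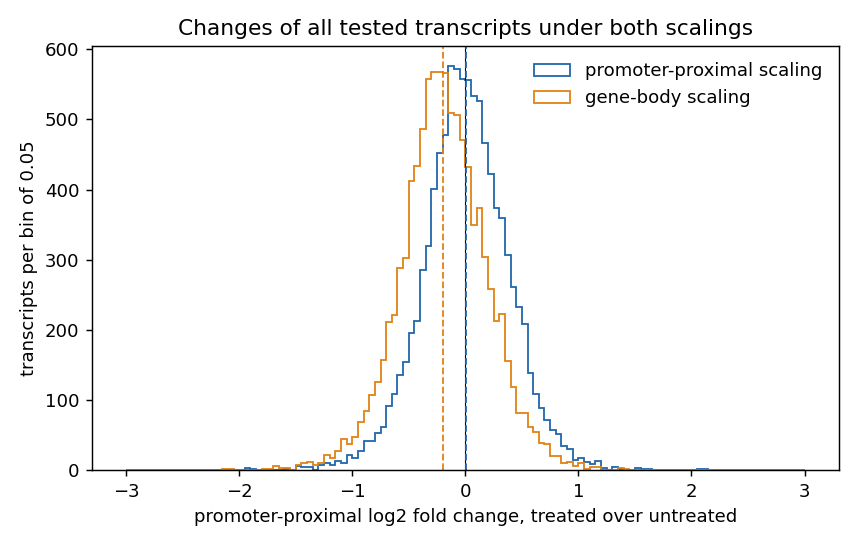
Number of tested transcripts by promoter-proximal log2 fold change, treated over untreated, with libraries scaled on promoter-proximal reads (blue) or on gene-body reads (orange). Dashed lines mark the medians, 0.00 and -0.20.

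The share of counted reads that lay near promoters, which sets the shift between the scalings, differed in direction between runs. It was 14.2 ± 2.13% in treated libraries (SD, n = 9) and 15.1 ± 4.82% in untreated ones (SD, n = 5). With runs centred the difference was -1.76 percentage points (exact permutation test within runs, two-sided, p = 0.353, smallest p possible 0.00397 over 252 arrangements). Within run 1 the share was 17.3% in the treated library and averaged 11.1% in the untreated ones, a difference of 6.26 points. Run 2 gave 14.5% and 20.1%, a difference of -5.60 points. Run 3 gave 11.8% and 13.0%, a difference of -1.13 points. Under gene-body scaling 3747 transcripts were called without run 1 (70 rises and 3677 falls) and 9 without run 2 (8 rises and 1 fall), and run 1 alone gave 33 rises and 3 falls. How far the share bears on these counts was not tested.

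**Figure D3:**
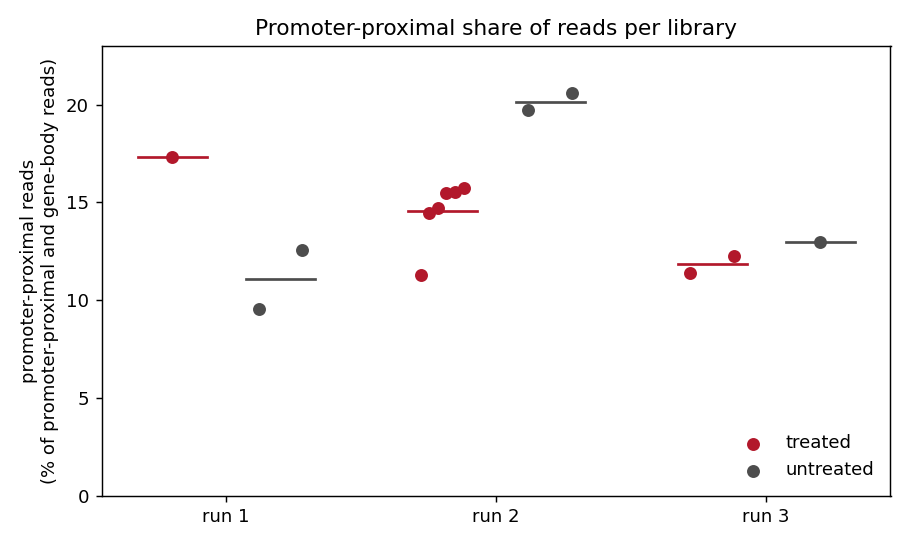
Promoter-proximal reads as a percentage of promoter-proximal and gene-body reads in each library, by run, with treated libraries in red, untreated ones in grey and group means as bars. The treated library is above both untreated ones in run 1, and all 6 treated libraries are below both untreated ones in run 2.

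The calls under promoter-proximal scaling rested on run 2. Without it, 0 transcripts were called in edgeR (668 had an unadjusted p under 0.05) and 36 in DESeq2, and the smallest edgeR adjusted p was 0.121. Run 2 alone gave 965 rises and 1068 falls, and the 2 other runs did not enter that fit. Of its 965 rises, 664 were higher in treated than in untreated libraries of run 1 (68.8%, against 50.9% of all tested transcripts) and 668 in run 3 (69.2%, against 49.9%). Of its 1068 falls, 748 were lower in run 1 (70.0%) and 766 in run 3 (71.7%). Both other runs went the same way for 449 of the rises (46.5%, against 26.4% of all tested transcripts) and for 541 of the falls (50.7%, against 25.6%). The median changes of these transcripts in the runs left out were 0.27 and 0.24 for the rises and -0.29 in each for the falls. Among the 987 pooled calls, 422 of 453 rises and 471 of 534 falls had the same sign in each run. Their fit used all 3 runs, so this agreement is partly built in. The share over all tested transcripts was not computed. Leaving out 1 untreated library of run 2 gave 460 calls (A) or 361 calls (B).

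In a model with a coefficient for each time, the median log2 change of the rises was 0.78 at 2 h, 0.68 at 6 h and 0.78 at 24 h, and that of the falls was -0.75, -0.69 and -0.83. These transcripts were chosen in the pooled comparison of the same libraries, so the medians are a description. A difference between 2, 6 and 24 h passed the test for 0 of 9799 transcripts (0%) in edgeR, with 467 at an unadjusted p under 0.05, and for 5 in DESeq2. These times share their untreated libraries. TTC8 changed by 2.52, 2.21 and 1.73 at 2, 6 and 24 h, DPH3 by -1.41, -1.27 and -1.43, and CEBPB by -0.70, -1.62 and -2.04. The authors' deposited table, which compares each time with 0 h, calls 78, 93 and 38 transcripts near promoters at 2, 6 and 24 h at an adjusted p under 0.05. Of these 143 transcripts, 127 were also called here in the pooled comparison, against 10.1% of all tested transcripts. Both rest on the same counts, so the overlap is not independent.

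Promoter-proximal and gene-body changes had the same sign for 393 of the 453 rises and 442 of the 534 falls. The share of agreeing signs over all tested transcripts was not computed. The gene-body change passed the test in the same direction for 262 rises and 272 falls, against 20.3% and 18.3% of all transcripts. It did not pass for 176 rises and 243 falls, among them TTC8, LTC4S and DPH3, and it was called in the opposite direction for 15 rises and 19 falls. The median gene-body change was 0.36 for the rises and -0.23 for the falls, against 0.02 for all transcripts.

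The transcripts that moved in opposite directions were named after their values were seen. PDE4A, a cAMP phosphodiesterase, held 3.52 to 16.4 CPM near the promoter in treated libraries, against 0.652 to 1.95 CPM in untreated ones, and rose there by 2.06 ± 0.40 (adjusted p = 0.00249). Its gene body held 20.1 to 41.0 CPM in treated libraries, against 38.4 to 46.2 CPM, and fell by 0.58 (adjusted p = 0.000428). LBR, the lamin B receptor, rose by 0.94 near the promoter and fell by 0.17 in the gene body, and TBP, the TATA-binding protein, rose by 0.65 and fell by 0.24. In the other direction ATP6V0E2, a proton pump subunit, held 4.06 to 16.4 CPM near the promoter in treated libraries, against 14.1 to 31.3 CPM in untreated ones, and fell there by 1.09 while its gene body rose by 0.68. S100A13, a calcium-binding protein, fell by 0.96 near the promoter and rose by 0.42 in the gene body. FOXM1, a transcription factor of the cell cycle, fell by 0.80 and rose by 0.39. Their mean promoter-proximal counts ranged from 15.2 reads for PDE4A to 734 for TBP.

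**Figure D4:**
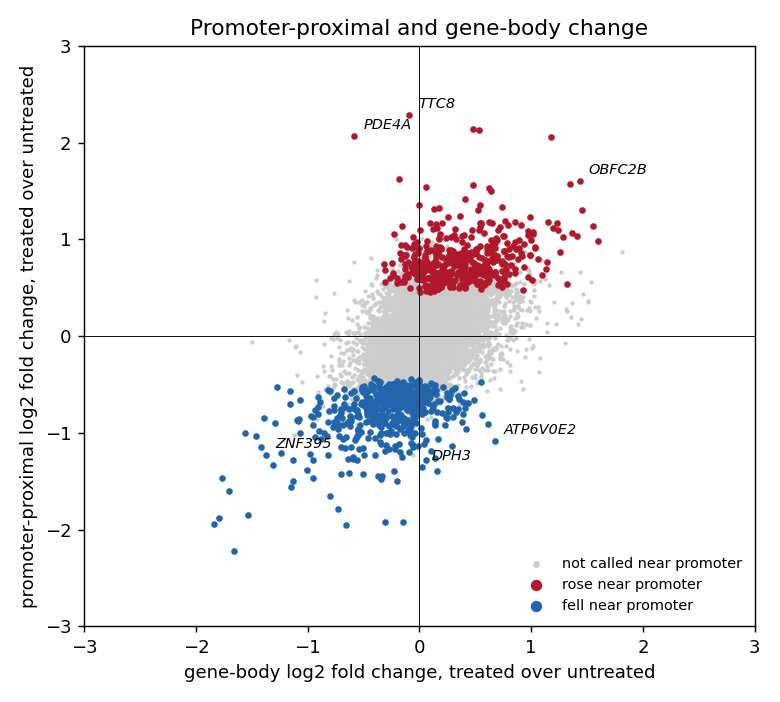
Log2 fold change, treated over untreated, near the promoter (vertical) and in the gene body (horizontal) for 9799 transcripts. Red marks the 453 rises and blue the 534 falls near promoters. TTC8 and DPH3 lie near 0 on the gene-body axis, OBFC2B and ZNF395 changed in both regions, and PDE4A and ATP6V0E2 lie in opposite quadrants.

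Gene lists were described by counts and medians, against the 4.62% of all transcripts that rose and the 5.45% that fell. The same counts under gene-body scaling left 1 list member called as a rise, IFIH1 (adjusted p = 0.04997), and 11 called as falls, and list medians lay lower there, at 0.20 for cholesterol synthesis and -0.07 for the interferon response. Of 31 tested members of the machinery of pausing and elongation 1 rose and 1 fell, with a median change of -0.01. PAF1, the scaffold of the PAF elongation complex, rose by 0.55 ± 0.14 (adjusted p = 0.0151). It held 117 to 149 CPM in treated libraries, against 73.0, 79.8, 84.0, 101 and 104 CPM in untreated ones, and the groups did not overlap. CCNT2, a cyclin of P-TEFb, fell by 0.58 ± 0.16 (adjusted p = 0.0218). Its treated libraries held 65.5 to 141 CPM and its untreated ones 87.6 to 190 CPM, so the groups overlapped. COBRA1, the NELF-B subunit, changed by 0.54 (adjusted p = 0.102), HEXIM1, the inhibitor of P-TEFb, by 0.59 (0.0719), SUPT16H of FACT by -0.46 (0.0695), SUPT5H of DSIF by 0.14 (0.574) and CDK9 by -0.24 (0.496). The PAF1 call ended without the 2 h library of run 1 (adjusted p = 0.0738), and the CCNT2 call ended without that library or either untreated library of run 2 (0.0688 to 0.103). The PAF1 call did not hold under gene-body scaling (adjusted p = 0.472).

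Among chromatin factors, 2 of 11 ISWI subunit genes passed the test, against 10.1% of all tested transcripts. RSF1 rose and RBBP4 fell, and 0 of 29 members of the SWI/SNF, CHD and INO80 remodellers passed the test (edgeR; 5 had an unadjusted p under 0.05, and DESeq2 called 1). RSF1, the histone-binding partner of SMARCA5, rose near the promoter by 1.05 ± 0.32 (adjusted p = 0.0375) while its gene body fell by 0.22 (adjusted p = 0.00235). It held 9.40 to 52.8 CPM in treated libraries, against 7.79, 9.53, 9.88, 10.6 and 14.01 CPM in untreated ones, and the 2 highest treated values were those of run 3 (52.8 and 39.5). The RSF1 call ended in 7 of the fits that left out 1 library, with an adjusted p of 0.174 without the untreated library of run 3. RBBP4, a histone-binding subunit of NURF and other complexes, fell by 0.64 (adjusted p = 0.0197), a call that ended without the untreated library B of run 2 (0.167) or the 2 h library of run 1 (0.0617). Of 14 genes of CTCF and cohesin, 1 rose and 1 fell. STAG1, a subunit of cohesin, fell by 0.89 ± 0.17 (adjusted p = 0.00264) and held that call in each fit without 1 library. It held 28.4 to 170 CPM in treated libraries, against 82.3, 122, 127, 221 and 254 CPM in untreated ones. HDAC8, the deacetylase of cohesin, rose by 0.74 (adjusted p = 0.0414), a call that ended in 9 of those fits. CTCF itself changed by -0.45 (adjusted p = 0.119).

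Cholesterol synthesis had the highest median of the lists, 0.42, with 7 of 26 tested members called as rises and 0 as falls. The 7 were DHCR7, MSMO1, CYP51A1, SQLE, HSD17B7 and FDFT1, enzymes of the sterol pathway, and INSIG1, which retains its regulator SCAP in the endoplasmic reticulum. Changes ranged from 0.69 for SQLE to 1.04 for INSIG1. DHCR7 held 15.8 to 31.5 CPM in treated libraries, against 8.81, 10.3, 10.8, 14.8 and 15.5 CPM in untreated ones, with no overlap, and rose by 0.99 ± 0.18 (adjusted p = 0.00155). MSMO1 held 124 CPM in the treated library of run 1, 32.7 to 50.4 in those of run 2 and 109 and 117 in those of run 3. Its untreated libraries held 24.6 and 26.4, 28.9 and 30.7, and 62.1 CPM in the same order of runs. SREBF1, a transcription factor of lipid synthesis, changed by -0.45 (adjusted p = 0.0678). In the gene body the median of the list was 0.76.

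Run and time are not fully apart here, as the treated libraries of run 1 were 2 h alone and those of run 3 6 h alone. At 2, 6 and 24 h MSMO1 changed by 1.44, 0.73 and 0.63 and INSIG1 by 1.54, 0.63 and 0.51. CYP51A1 changed by 1.21, 0.49 and 0.75 and DHCR7 by 1.11, 0.88 and 0.94. No difference between the times passed the edgeR test. The median of this list differed between runs. It was 1.03 within run 1, 0.16 within run 2 and 0.18 within run 3, and 2 members rose and 1 fell once the 2 h library of run 1 was left out. The calls of INSIG1 and CYP51A1 were among those that ended then (adjusted p = 0.0905 and 0.131), while DHCR7 and MSMO1 were still called (0.0120 and 0.0454). Under gene-body scaling of the promoter-proximal counts 0 of 26 members were called (8 had an unadjusted p under 0.05 in edgeR, and DESeq2 called 0). In the gene body itself INSIG1 rose by 0.97 (adjusted p = 0.0130) and DHCR7 by 0.996 (adjusted p = 0.0141), with all times pooled. In run 2 the INSIG1 gene body held 100 and 91.8 CPM at 2 h and 42.9 to 48.9 at 6 and 24 h. Untreated libraries of that run held 52.2 and 49.7 CPM. For DHCR7 these values were 84.3 and 91.6, then 39.0 to 45.1, against 47.8 and 46.0 CPM. At 6 h in run 3 INSIG1 held 120 and 115 CPM, against 55.2 untreated, and DHCR7 106 in each, against 54.6. The summed level of the list was 2055 to 4273 CPM in treated libraries, against 2047 to 2238 CPM in untreated ones.

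**Figure D5:**
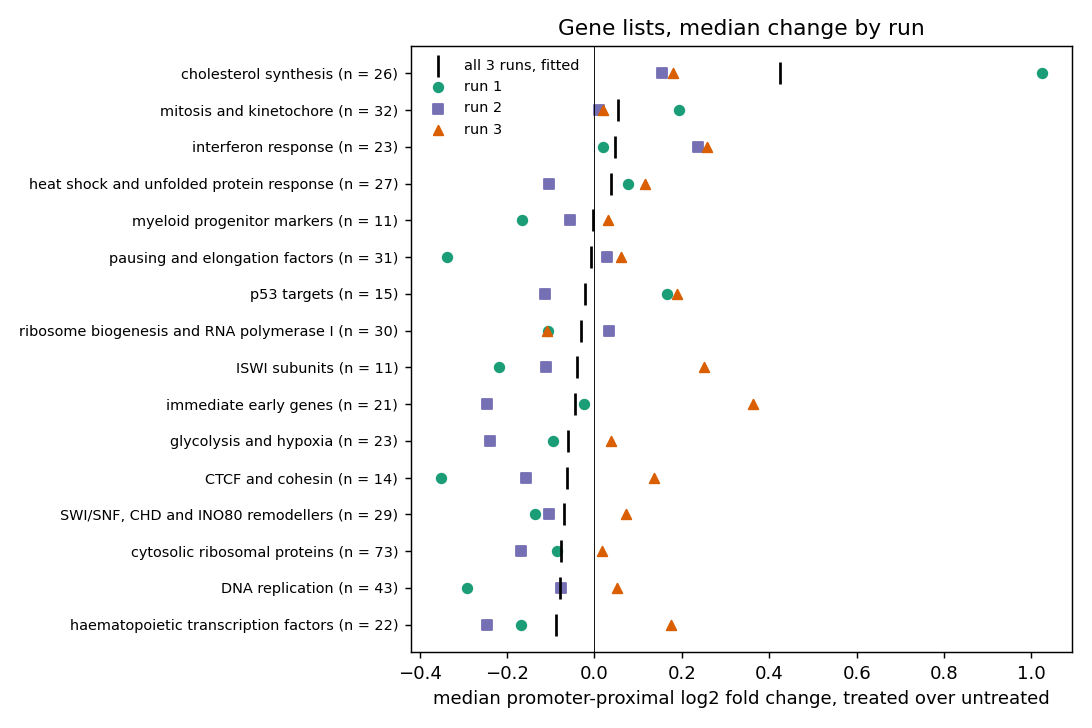
Median promoter-proximal log2 fold change, treated over untreated, of 16 gene lists with at least 5 tested members, over all runs (bar) and within each run (markers). Cholesterol synthesis has the highest fitted median, 0.42, and its within-run medians are 1.03, 0.16 and 0.18. Those of the CTCF and cohesin list are -0.35, -0.16 and 0.14.

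Among signalling and stress genes, 2 of 21 immediate early genes rose and 1 fell, with a median of -0.04. JUNB, an AP-1 subunit, held 645 to 881 CPM in treated libraries, against 337, 454, 520, 587 and 609 CPM in untreated ones, and rose by 0.57 (adjusted p = 0.0269). PIM1, a kinase induced by cytokines, rose by 0.63 (adjusted p = 0.0494), and DUSP1, a phosphatase that shuts off MAP kinases, fell by 0.58 (adjusted p = 0.0238). The JUNB and DUSP1 calls each ended without either untreated library of run 2 or without the 2 h library of run 1 (0.0632 to 0.117), and the PIM1 call ended in 11 of the fits without 1 library. MYC changed by -0.04 (adjusted p = 0.912). Of 27 genes of the heat shock and unfolded protein responses 0 passed (edgeR; 7 had an unadjusted p under 0.05, and DESeq2 called 0), and 1, HSPB1, a small heat shock protein, was called as a fall under gene-body scaling (-1.02, adjusted p = 0.0253). Of 15 p53 targets 2 rose, C12orf5 (TIGAR), a regulator of glycolysis (0.64), and DDB2, a DNA damage sensor (0.64), and the median of the list was -0.02. The C12orf5 groups did not overlap, at 31.6 to 39.6 CPM in treated libraries, against 12.4 to 29.9 CPM in untreated ones. Its call ended without the untreated library A of run 2 (adjusted p = 0.0895) or the 2 h library of run 1 (0.131), and that of DDB2 ended in 8 such fits. Of 23 interferon response genes 3 rose, with a median of 0.05. IFIH1, a sensor of double-stranded RNA, rose by 1.05 ± 0.19 (adjusted p = 0.00130), and its call held without any 1 library. It held 12.9 to 24.0 CPM in treated libraries of runs 1 and 2 and 75.9 and 96.3 in run 3, against 8.21 to 13.0 CPM in untreated libraries of the first 2 runs and 36.4 in run 3. IFI6 (0.76) and IRF9 (0.61) lost their calls in 2 and 6 of the fits without 1 library.

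Haematopoietic transcription factors gave 1 fall among 22 tested, ZEB2, a zinc finger repressor (-0.93 ± 0.18, adjusted p = 0.00286). ZEB2 held 146 to 325 CPM in treated libraries, against 263, 280, 416, 420 and 544 CPM in untreated ones. It fell by 0.73 in the gene body too, with all times pooled. In run 2 its gene body held 1255 and 1220 CPM at 2 h and 1515 and 1510 at 6 h. At 24 h it held 1890 and 1946 CPM, against 2185 and 2200 in the untreated libraries of that run. RUNX1 changed by 0.05 near the promoter (adjusted p = 0.873) and by -0.31 in the gene body (adjusted p = 6.34e-05). SPI1 changed by -0.08 (adjusted p = 0.785) near its promoter. EPCAM, an adhesion protein from the epithelial list, fell by 0.87 (adjusted p = 0.00236), with 16.9 to 62.9 CPM in treated libraries, against 60.01 to 96.5 CPM in untreated ones.

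Growth-related lists had few calls. Of 73 cytosolic ribosomal protein genes 4 rose (RPS3, RPL27, RPS18 and RPS15, by 0.60 to 0.67) and 2 fell (RPL22 by 0.68 and RPL38 by 0.50), with a median of -0.08. RPS3 and RPL22 lost their calls without either untreated library of run 2 (adjusted p = 0.139 and 0.133 for RPS3, 0.0767 and 0.154 for RPL22). The calls of RPL27 and RPL38 ended in 3 and 4 of the fits that left out 1 library. Of 30 genes of ribosome biogenesis and RNA polymerase I, WDR12 fell by 0.94. Of 43 DNA replication genes 2 fell and 0 rose. MCM6, a subunit of the replicative helicase, held 28.9 to 71.7 CPM in treated libraries, against 39.5, 75.0, 90.6, 113 and 114 CPM in untreated ones, and fell by 0.71 (adjusted p = 0.00685). RFC3, a subunit of the clamp loader, fell by 0.63, a call that ended without the untreated library B of run 2 (adjusted p = 0.0733). Their gene bodies changed by -0.03 (adjusted p = 0.815) and -0.13 (0.213). Of 32 mitosis genes 1 rose, CDK1, the kinase of mitotic entry (0.56), a call that ended in 11 of the fits without 1 library. Of 23 glycolysis and hypoxia genes ALDOA, an aldolase, rose by 1.05 and PFKP, a phosphofructokinase, fell by 0.57. ALDOA held 9.84 to 20.0 CPM in treated libraries, against 1.96, 5.65, 6.82, 10.9 and 11.98 CPM in untreated ones. Its call ended without the 2 h library of run 1 (adjusted p = 0.0822), that of WDR12 without that library (0.0804) or the untreated library B of run 2 (0.0568), and that of PFKP in 8 such fits.

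Length, level, coding status and the ratio of reads between regions were set beside those of all tested transcripts. The median transcript length was 18.6 kb for the rises and 29.4 kb for the falls, against 25.0 kb for all tested transcripts. The median promoter-proximal level over all libraries, taken from the counts that were tested, was 39.0 and 44.3 CPM, against 44.7 CPM. Non-coding transcripts made up 8.61% of the rises and 8.43% of the falls, against 7.86%. The median ratio of promoter-proximal to gene-body reads was 0.203 for the rises and 0.132 for the falls, against 0.148. This measure also holds the counts of the comparison itself.

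Promoter sequence was read from RefSeq (GRCh38.p14) over 300 bases, from 250 before to 50 after the start listed for the gene. Of the 9799 tested transcripts 8051 were matched, with 374 of the rises and 426 of the falls. The median GC content was 65.0% for the rises and 66.2% for the falls, against 65.3% for all matched promoters. A start on the opposite strand within 1000 bases was found for 38.5% and 32.2%, against 35.4%. The CCAAT box (CCAAT) stood in 44.1% of the promoters of rises and 31.5% of those of falls, against 38.01% of all. A GC box (GGGCGG) stood in 73.8% and 70.9%, against 72.2%, and an E box (CACGTG) in 8.56% and 11.97%, against 11.1%. The RUNX letters TGTGGT stood in 11.8% and 8.22%, against 9.14%, the CTCF core in 14.2% and 17.4%, against 15.04%, and the SREBP letters TCACNCCAC in 1.604% and 1.64%, against 1.03%. Both strands were searched, and no motif contains another. For the other 5 motifs searched (a TATA box TATAAA, ETS CCGGAAGT, NRF1, CRE TGACGTCA and YY1 AAGATGGC) the shares were 4.28%, 10.2%, 3.48%, 3.21% and 5.88% in rises and 5.16%, 8.45%, 1.41%, 2.58% and 4.69% in falls, against 4.81%, 10.6%, 2.83%, 3.52% and 6.42% of all. Of the 6 promoters shown above, OBFC2B and DPH3 hold a CCAAT box within the 300 bases, 5 hold a GC box, and TTC8 holds the SREBP letters.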

How the data were processed

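The labels name PRO-seq of nuclear run-on RNA from Kasumi-1 cells. The submitters' processing notes list DESeq, DESeq2, HOMER, SAMtools, Bowtie2 2.2.2 and Trimmomatic 0.32, with hg19 as the assembly. The authors deposited raw read counts per transcript for promoter-proximal regions and gene bodies, identical in the 3 tables of each region. Their tables also hold, per the file headers, DESeq2 log2 fold changes and adjusted p-values for each time, used here only where named. The 84 deposited normalized columns were not used.

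The analysis used R 4.3.3 and edgeR 4.0.16 (quasi-likelihood test, default expression filter, a term for the run and 1 for treatment). Libraries were scaled by TMM on promoter-proximal or on gene-body counts, and p-values were adjusted by Benjamini-Hochberg over all tested transcripts with a threshold of 0.05. The standard error is the log2 fold change divided by the root of the F statistic. Within-run values are differences of mean log2 CPM (prior count 2). DESeq2 1.42.0, other filters, thresholds and scalings, and leaving out each library or run were tried as alternatives. The block of letter within run, and the settings of the cholesterol count, were chosen after seeing the data. The main test was checked on simulated counts with known changes.

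Members, gene lists and tests were chosen with earlier results of these data known. Among called transcripts with a mean of at least 100 reads, the rule named the 12 largest rises and falls and the 6 of each with the smallest p. It added SMARCA5, the 4 list members with the lowest p in each list, and others where a list could not be described without them. Other genes were named after their values were seen. Of several transcripts of a symbol, the one with most reads was taken. Promoters were matched through the gene, by accession, symbol or synonym, and their starts were not compared with those of the counted transcripts. Some genes named by the rule are not reported here.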

Additional observations from a re-analysis of the deposited data

Results flagged for a closer look

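Single libraries stood apart from the rest of their group in 20 of 192 groups examined (each named transcript, and the share of reads near promoters, in treated and in untreated libraries), by Dixon's ratio of the gap to the range. Chance alone gives about 1 in 20. Values are promoter-proximal CPM. The untreated library of run 3 was the highest of the untreated libraries for TTC8 (16.2), OBFC2B (92.1), MSMO1 (62.1), INSIG1 (22.6), MYB (64.3), CDK1 (225) and IFIH1 (36.4), and the lowest for RPL38 (237). The 6 h library A of run 3 stood apart among the treated libraries for INSIG1 (73.1), DUSP1 (312), PIM1 (123), TCF3 (70.0) and PFKP (41.6). Run 1 held the untreated libraries that stood apart for PIAS3 (5.54), SPRY1 (503) and ZNF35 (254), and the treated one for EZR (244). In run 2 the 24 h libraries stood apart for CD33 (A, 40.8) and TFRC (B, 400.1), and the untreated library A for TFRC (721). What these libraries share beyond their run was not tested.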

How the results depend on the processing

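The 987 promoter-proximal calls became 347 without the run term, 573 at a mean of at least 100 reads, 335 at an adjusted p under 0.01, 636 without the 24 h libraries, 22 in run 1 alone, 0 without run 2, 2033 in run 2 alone and 5 in run 3 alone. The 497 calls under gene-body scaling became 76, 260, 165, 201, 36, 9, 4800 and 0 under the same 8 settings, 3747 without run 1, 315 without run 3 and 1305 with letter within run as the block. Falls outnumbered rises among these calls except in run 1 alone (33 rises, 3 falls) and without run 2 (8 rises, 1 fall), and run 3 alone gave 0. The 7 rises of the cholesterol list became 1 without the run term, 3 at the read minimum, 2 at 0.01, 2 without run 1, 3 in run 1 alone, 0 without run 2, 2 in run 2 alone and 0 in run 3 alone. The list had 0 falls, but 1 without run 1, 2 in run 2 alone and 1 with the letter block (5 rises). DESeq2 called a difference between the times for 5 transcripts. The share of promoter-proximal reads differed by 6.26 points in run 1 alone and by -5.60 in run 2 alone. Within run 1 RSF1 changed by -0.095, and within run 3 RPL22 changed by 0.20, opposite to their pooled direction. Most of these settings also held fewer libraries or transcripts, and the causes of the differences were not tested.

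Leaving out 1 library gave 361 to 1176 promoter-proximal calls (lowest without untreated library B of run 2, highest without 6 h library A of run 3, and 460 without untreated A of run 2) and 2 to 10 rises of the cholesterol list (4 without either untreated library of run 1), with 2 falls without untreated A of run 1, 1 without the 2 h library of run 1 and 0 in the other such fits. Under gene-body scaling it gave 117 calls (without untreated B of run 2) to 3227 (without the 2 h library of run 1), with a median change of all transcripts of -0.46 to -0.071. It also gave 1369 there without untreated A of run 1, 143 without untreated A of run 2, 319 and 328 without the 6 h libraries A and B of run 2, and 311 without the 24 h library A. Gene-body calls were 3210 to 3940, calls of a difference between times 0 to 0, and the difference in share -4.23 to -0.46 points. Of the 56 named transcripts that were called, 33 kept their call in each fit without 1 library. No paired analysis was possible because the columns do not carry the replicate numbers of the labels. Letter within run, which the labels do not tie to those numbers, was added as a block after seeing the data and gave 1057 promoter-proximal calls. Low counts limited the tests to 9799 of 10304 transcripts.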

Other observations

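Several of the largest changes lay in transcripts with a mean under 100 reads and were named after their values were seen. FJX1, a secreted regulator of growth related to Drosophila four-jointed, held 3.52 to 13.7 CPM near the promoter in treated libraries, against 18.4, 32.4, 43.4, 45.4 and 48.2 CPM in untreated ones. It fell by 2.22 ± 0.24 on the log2 scale near the promoter (edgeR adjusted p = 2.05e-05) and by 1.66 in the gene body. CCND1, the cyclin D1 of G1 progression, held 3.37 to 7.02 CPM in treated libraries, against 11.2, 14.03, 17.6, 21.5 and 33.9 CPM in untreated ones, and fell by 1.96 near the promoter and by 0.66 in the gene body. CCDC71L fell by 1.88 and 1.80. TERT, the catalytic subunit of telomerase, changed by -1.85 and -1.53, with 8.02 to 33.3 CPM in the gene body of treated libraries, against 48.3 to 65.1 CPM in untreated ones. TRNP1, a nuclear protein of neural progenitors, fell by 1.92 near the promoter, while its gene body changed by -0.15 (adjusted p = 0.479).

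Among the rises with few reads, RPGRIP1L, a protein of the ciliary transition zone, held 14.1 to 42.7 CPM near the promoter in treated libraries, against 2.43, 4.59, 5.21, 5.56 and 7.04 CPM in untreated ones. It rose by 2.14 ± 0.27 (adjusted p = 4.29e-05) and by 0.48 in the gene body. SYT11, a synaptotagmin of vesicle traffic, rose by 2.13 near the promoter and by 0.53 in the gene body. PRPF40B, a splicing factor, held 21.1 to 38.3 CPM in treated libraries, against 1.96, 3.16, 6.34, 8.47 and 9.88 CPM in untreated ones, and rose by 2.06 and 1.18. TGFB1I1, a focal adhesion adaptor, rose by 1.63 near the promoter, while its gene body changed by -0.18 (adjusted p = 0.412). In each of these 9 transcripts, chosen for their large changes, every treated library lay on the same side of every untreated one. Among all tested transcripts, 74 lay wholly above (0.755%) and 101 wholly below (1.03%). In SHF, another transcript with few reads that fell by 1.92, the groups overlapped. It held 1.54 to 5.46 CPM in treated libraries, against 5.21 to 13.4 CPM in untreated ones.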
